A study of Mus musculus with 16 samples.

Results

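Accessible chromatin was examined at 7 genes that specify primordial germ cells or keep them alive: *Prdm1*, *Prdm14*, *Tfap2c*, *Nanos3*, *Dnd1*, *Ddx4* and *Dazl*. They were chosen by name, with earlier results of these data known, as 7 of 21887 protein-coding genes of a RefSeq annotation of the mouse genome (GRCm38). For each gene, the ATAC-seq peaks within the gene's outer bounds and 20 kb on each side were taken. Joining the peaks of all lists that overlapped by at least 1 bp gave 44 regions at these genes, of 107032 in the genome. ATAC-seq marks open chromatin by the sites where a transposase can insert adapters into DNA. The cells were male germ cells of the testis (gonocytes) of mice with the Mvh-Venus transgene, which all groups carried. They came from *Morc1* (+/-) mice, called heterozygous here, and *Morc1* (-/-) mice, called knockout. They were taken before birth, on embryonic days called E13.5 and E16.5, or after it, on the day of birth (P0) or postnatal day 3 (P3). The 16 samples form 8 groups of 2, and each group has 1 peak list. Mvh is a synonym of *Ddx4*, 1 of the 7 genes, and which *Ddx4* sequence the transgene holds is not given in the labels.

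Primordial germ cells are set aside in the early embryo, where BMP signals switch on a small network of transcription factors. PRDM1 (BLIMP1) represses the somatic programme, PRDM14 supports the return to a pluripotency-like state, and TFAP2C (AP-2 gamma) acts downstream of PRDM1. The 4 other genes encode RNA-binding proteins. NANOS3 protects migrating germ cells from death, and DND1, the product of the locus of the Ter mutation that causes germ cell loss and testicular tumours, binds target mRNAs with NANOS proteins. DDX4 (the mouse Vasa homologue) is an RNA helicase of germ granules, and DAZL is a translational regulator through which germ cells that have reached the gonad become able to enter male or female development.

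The RefSeq promoter table (GRCm38.p6) held a start for 4 of the 7 genes, *Prdm1*, *Nanos3*, *Ddx4* and *Dazl*, all on the minus strand. The 250 bases before each start are shown because the start sites differed in the peak lists: at *Ddx4*, *Dazl* and *Prdm1* a peak lay within 1000 bp of the start in all 6 distinct lists, and at *Nanos3* in 1. The windows are chr13:112652311-112652560 (*Ddx4*), chr17:50293621-50293870 (*Dazl*), chr10:44458749-44458998 (*Prdm1*) and chr8:84176553-84176802 (*Nanos3*). Capitals mark exact matches, on either strand, to any of the 9 motifs searched; overlapping matches run together.

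*Ddx4*: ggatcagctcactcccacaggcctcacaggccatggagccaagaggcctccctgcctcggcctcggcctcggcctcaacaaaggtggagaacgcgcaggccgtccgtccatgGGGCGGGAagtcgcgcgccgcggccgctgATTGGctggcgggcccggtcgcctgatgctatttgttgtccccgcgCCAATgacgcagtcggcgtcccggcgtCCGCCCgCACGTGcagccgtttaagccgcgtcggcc
*Dazl*: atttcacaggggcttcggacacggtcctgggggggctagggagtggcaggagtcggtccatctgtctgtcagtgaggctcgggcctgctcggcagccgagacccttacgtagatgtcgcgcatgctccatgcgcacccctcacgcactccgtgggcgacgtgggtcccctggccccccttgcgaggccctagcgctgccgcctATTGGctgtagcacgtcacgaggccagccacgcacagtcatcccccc
*Prdm1*: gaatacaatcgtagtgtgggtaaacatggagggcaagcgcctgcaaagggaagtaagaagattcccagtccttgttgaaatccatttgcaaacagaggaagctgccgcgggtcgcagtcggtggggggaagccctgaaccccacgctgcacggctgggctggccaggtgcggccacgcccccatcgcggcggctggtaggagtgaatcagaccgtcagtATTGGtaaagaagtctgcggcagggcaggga
*Nanos3*: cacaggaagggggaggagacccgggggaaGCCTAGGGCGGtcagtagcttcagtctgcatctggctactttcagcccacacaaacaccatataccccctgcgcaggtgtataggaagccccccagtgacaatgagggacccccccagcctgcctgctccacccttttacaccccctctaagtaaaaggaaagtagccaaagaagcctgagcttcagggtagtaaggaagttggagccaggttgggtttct

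The *Ddx4* sequence held 31 CpG dinucleotides, *Dazl* 20, *Prdm1* 15 and *Nanos3* 3, against a median of 10 over 21263 promoter windows of protein-coding genes. As few as the *Nanos3* window, or fewer, were found in 29.0% of promoters, and as many as the *Ddx4* window, or more, in 6.67%. CpG content and start-site peaks went together across the genome. Of 6166 promoters with no more CpG than *Nanos3*, 9.80% had a peak within 1000 bp of the start in E13.5 heterozygous cells and 9.89% in E13.5 knockout cells. Of 10103 promoters with more than 10 CpG, 91.7% and 92.1% did. The capitals in *Ddx4* mark 2 GC boxes (GGGCGG, in 42.6% of promoters), an E2F core (TCCCGC, 21.8%) overlapping the more distant GC box, 2 CCAAT boxes (CCAAT, 35.4%) and an E-box (CACGTG, 6.63%) at bases -29 to -24 from the start. *Dazl* and *Prdm1* each held 1 CCAAT box, at -47 to -43 and -31 to -27. *Nanos3* held an AP-2 motif (GCCNNNGGC, 16.3%) at -221 to -213 that overlaps a GC box at -216 to -211. The other motifs searched had no match in these 4 windows: the CRE TGACGTCA (1.92% of promoters), the NRF1 core GCGCATGCG (1.93%), the PRDM14 motif GGTCTCTAA (0.263%) and TATAAA (11.6%).

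The 2 deposited P0 lists were identical, as were the 2 P3 lists, so the genotypes were compared before birth alone, and P0 and P3 stand for a stage without a genotype. The 6 distinct lists held 39559 to 67258 peaks, almost all of the same width. They give positions without a height, count or score, and none belongs to a single sample: the depth is unknown, no spread between replicates can be given and no test of stage or genotype could be made. Shares carry 95% Wilson intervals, which describe counting error among peaks and treat the peaks of 1 gene as independent. Start-site peaks were found at 5 to 7 of 8 germ cell marker genes per list (*Ddx4* and *Dazl* among them), at 1 or 2 of 6 Sertoli, 1 of 5 Leydig, 2 or 3 of 4 myoid and stromal and 0 of 4 endothelial and blood markers. Over all protein-coding genes the share was 59.5% to 63.9% per list. *Sox9*, *Amh*, *Cyp17a1*, *Star*, *Pecam1* and *Ptprc* had none in any list, and neither did the germ cell marker *Nanos2*. All of these but *Ptprc* and *Nanos2* lack a listed start and were scored at both outer ends. The somatic markers *Cldn11* (Sertoli), *Cyp11a1* (Leydig) and *Myh11* (myoid) had one in all 6 lists, and *Wt1* and *Tcf21* in all but P3. The part of other cells in the peaks below was not tested.

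The peaks at the 7 genes were most numerous at E13.5. The E13.5 heterozygous list held 29, the E13.5 knockout list 32, both E16.5 lists 19 each, the P0 list 17 and the P3 list 15. The E13.5 lists were nonetheless the 2 shortest, and the P0 list, with 67258 peaks, was the longest. The mean over the windows of all protein-coding genes was 2.3 peaks in the E13.5 heterozygous list, 2.36 at E16.5 in heterozygous cells, 2.66 at P0 and 2.09 at P3, with a median of 2 in each of the 6 lists. In sums by role, the difference lay with the transcription factor genes. *Prdm1*, *Prdm14* and *Tfap2c* together held 19 (heterozygous) and 21 (knockout) peaks at E13.5, then 9 and 10 in the E16.5 lists, 8 in the P0 list and 5 in the P3 list. *Nanos3*, *Dnd1*, *Ddx4* and *Dazl* together held 10 and 11, then 10 and 9, then 9 and 10. This grouping by role was made after the values were seen.

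**Figure D1:**
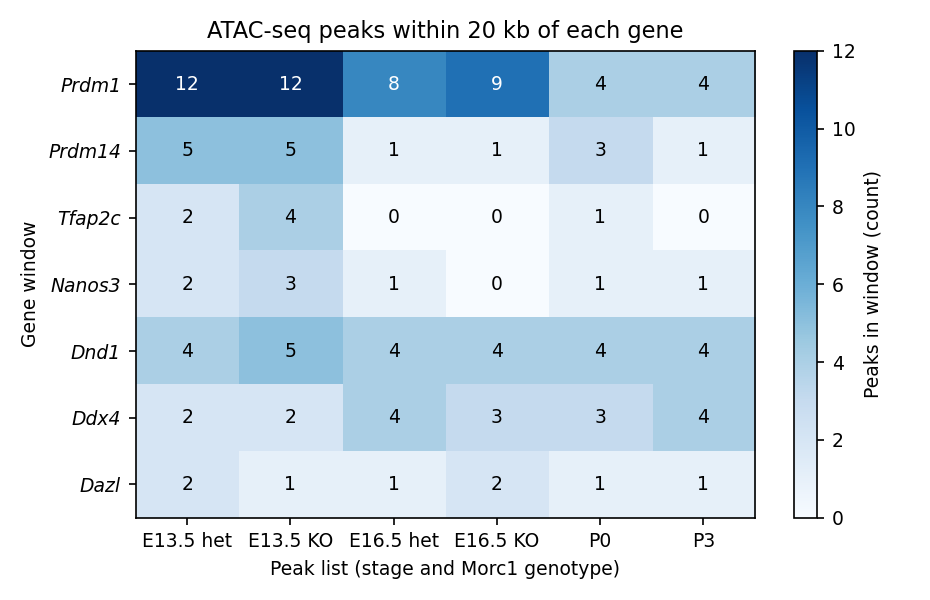
Number of ATAC-seq peaks in the window of each gene (rows; gene bounds and 20 kb on each side) in each of the 6 distinct lists (columns); the colour and the printed number give the count. *Prdm1* stands at 12 in both E13.5 lists and 4 at P0 and P3, while *Dnd1* stays at 4 or 5.

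*Prdm1* (gene ID 12142, chr10:44437174-44528558) had the most peaks. Its 131 kb window held 12 peaks in each E13.5 list, 8 in the E16.5 heterozygous list, 9 in the E16.5 knockout list and 4 each at P0 and P3. As many as 12 were found in 116 of 21887 gene windows (0.530%) in the E13.5 heterozygous list, whereas 25.4% of windows held 4 or more at P0. Per unit length, 2.81% of windows were as dense in peaks as *Prdm1* at E13.5 and 52.5% at P0. Of all windows, 22.9% had fewer peaks at P0 than in E13.5 heterozygous cells and 37.9% had more; at P3, 32.1% had fewer and 20.8% more. Windows that start with many peaks can lose more, so *Prdm1* was set beside the 116 windows with at least 12 peaks in the E13.5 heterozygous list. Their median count at P0 was 0.833 of that at E13.5, and 13 of them (11.2%), *Prdm1* included, had a ratio as low as its 4 to 12. At P3 this was 7 (6.03%), and in the E16.5 heterozygous list, with 8 peaks at *Prdm1*, 41 (35.3%).

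All 12 E13.5 peaks of *Prdm1* were found in both genotypes. The 17 regions of the window fell into a constant part and a stage-specific part. The start listed in RefSeq (position 44458748) lay in a region present in all 6 lists, at 44458489 to 44459026, whose peak centres differed by 37 bp at most. A second constant region lay at 44529206 to 44529836, 0.963 kb beyond the upper outer end of the gene. A region at 44538671 to 44539771 also counts as present in all 6 lists, but through a chain of overlapping peaks whose centres differed by 600 bp, and its E13.5 heterozygous peak does not overlap its P0 peak. Another 7 regions were present in both E13.5 lists and in no later list. One of them lay 9.01 kb beyond the lower end of the gene, next to the lncRNA gene *Gm35028*, and 6 lay inside the outer bounds, at -10.2 to -61.7 kb from the listed start, that is upstream of it.

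Between these, 2 regions inside the gene (44483082 to 44483793 and 44492873 to 44493468) were present in the 4 fetal lists and absent at P0 and P3. A region 12.9 kb beyond the upper end (44541142 to 44541684) was found at P0 and in the pair of E16.5 lists, and one 17.5 kb downstream of the start (44440851 to 44441548) in both E16.5 lists and at P3. The remaining 3 regions were in a single E16.5 list each: 44431999 to 44432499 and 44526864 to 44527364 in knockout cells and 44476418 to 44476918 in heterozygous cells.

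**Figure D2:**
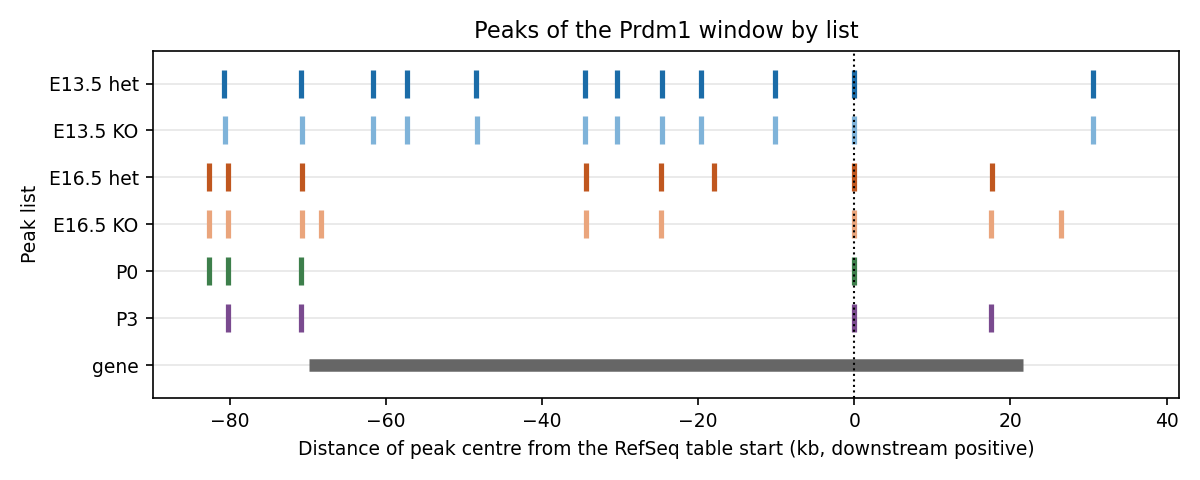
Centres of the peaks in the *Prdm1* window in each list, by distance from the start listed in the RefSeq promoter table (kb, downstream positive, dotted line); the grey bar is the gene between its outer bounds. Both E13.5 lists carry 7 peaks, 6 of them upstream of the start, that no later list holds, while the peak at the start is in all 6.

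*Prdm14* (gene ID 383491, chr1:13113428-13127163) held 5 peaks in each E13.5 list, 1 in each E16.5 list, 3 at P0 and 1 at P3. The same 5 regions were found in both genotypes at E13.5. Of these, 4 were in no later list: the one across the upper outer end of the gene (13126998 to 13127513), one 1.58 kb beyond the lower end, one 5.12 kb beyond the upper end and one 18.5 kb beyond the lower end. The last of these was centred inside the lncRNA gene *Gm39592*. The fifth, at 13103641 to 13104446, was centred inside *Gm39592* near one of its ends and was also in the E16.5 heterozygous, P0 and P3 lists. Inside the gene, a region absent at E13.5 appeared in the E16.5 knockout and P0 lists (13118177 to 13118696). Of its 5 heterozygous E13.5 peaks, 1 was found at E16.5 (20%). Among the 2268 windows with at least 5 peaks in that list the median was 60.0%, and 9.57% of them had a share as low or lower. At *Prdm1* the share was 5 of 12 (41.7%), and 32.7% of these windows were as low or lower. In knockout cells 0 of the 5 *Prdm14* peaks were found at E16.5, as in 12 of 2360 such windows (0.508%), and *Prdm1* again had 5 of 12, with 27.5% as low or lower.

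*Tfap2c* (gene ID 21420, chr2:172545678-172558622) held 2 peaks in the E13.5 heterozygous list, 4 in its knockout counterpart, 0 in both E16.5 lists, 1 at P0 and 0 at P3. No list had a peak within 1000 bp of its outer ends. Both E13.5 lists shared a region 3.81 kb inside the lower outer end (172549199 to 172549778), which was found again at P0. They also shared one 18.8 kb beyond the upper end (172577110 to 172577650), centred inside the lncRNA gene *Gm36038* near one of its ends. The other 2 peaks of the knockout list, at 172536164 to 172536664 and 172567863 to 172568363, were in no other list and lay 9.26 and 9.49 kb outside the gene.

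*Nanos3* (gene ID 244551, chr8:84173733-84176552) held 2 (heterozygous) and 3 (knockout) peaks at E13.5, 1 in the E16.5 heterozygous list, 0 in the E16.5 knockout list and 1 each at P0 and P3. The peak at its start, at 84176469 to 84176969, was in the E13.5 knockout list alone and spans the whole promoter sequence printed for *Nanos3*. Upstream, 2 regions were in both E13.5 lists. The one 4.20 kb from the start (84180495 to 84181012) was found again at P0, and the one 10.2 kb away (84186477 to 84186986) was not found later. A region 15.9 kb upstream joined an E16.5 heterozygous and a P3 peak whose centres were 445 bp apart.

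*Dnd1* (gene ID 213236) lies among closely spaced genes on chromosome 18, at positions 36763671 to 36766214, with 5 other protein-coding genes in its window. It held 4 peaks in each list except the E13.5 knockout list, which held 5. Every one of its 5 regions lay within 1000 bp of an end of a neighbouring gene (*Ndufa2*, *Ik*, *Wdr55*, *Hars* or *Hars2*), so that peaks of *Dnd1* and of its neighbours cannot be told apart here. A region across its upper outer end, shared with *Hars* (36766027 to 36766596), was in all lists but E13.5 heterozygous. A region inside the gene (36764383 to 36764913) was in both E13.5 lists and in no other.

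*Ddx4* (gene ID 13206, chr13:112598333-112652633) had a constant start site. The region there, at 112652042 to 112652583, was in all 6 lists with centres within 41 bp of each other. It spans the whole CpG-rich sequence printed for *Ddx4*. Only the E13.5 heterozygous peak, which ends at 112652542, covers less than all of that sequence. A second constant region, 8.13 kb beyond the upper end, lay at an end of the neighbouring gene *Slc38a9*. In total the window held 2 peaks in each E13.5 list, 4 and 3 in the E16.5 heterozygous and knockout lists, 3 at P0 and 4 at P3. The later lists all held a region inside the gene, 35.1 kb downstream of the start (112616884 to 112617505), that neither E13.5 list held. It is the only region of the 44 with that pattern. Single lists added one at 112638971 to 112639471 (E16.5 heterozygous) and one at 112595194 to 112595694 (P3). Transgene and endogenous copies of *Ddx4* sequence cannot be told apart in these lists.

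*Dazl* (gene ID 13164, chr17:50279393-50293620) held 2 peaks in the E13.5 heterozygous and E16.5 knockout lists and 1 in each of the others. The constant peak, at 50292618 to 50293175, was centred 724 bp inside the gene and not on the promoter sequence printed above, and its 6 centres lay within 57 bp. The second, at 50299886 to 50300470, lay 6.56 kb upstream.

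**Figure D3:**
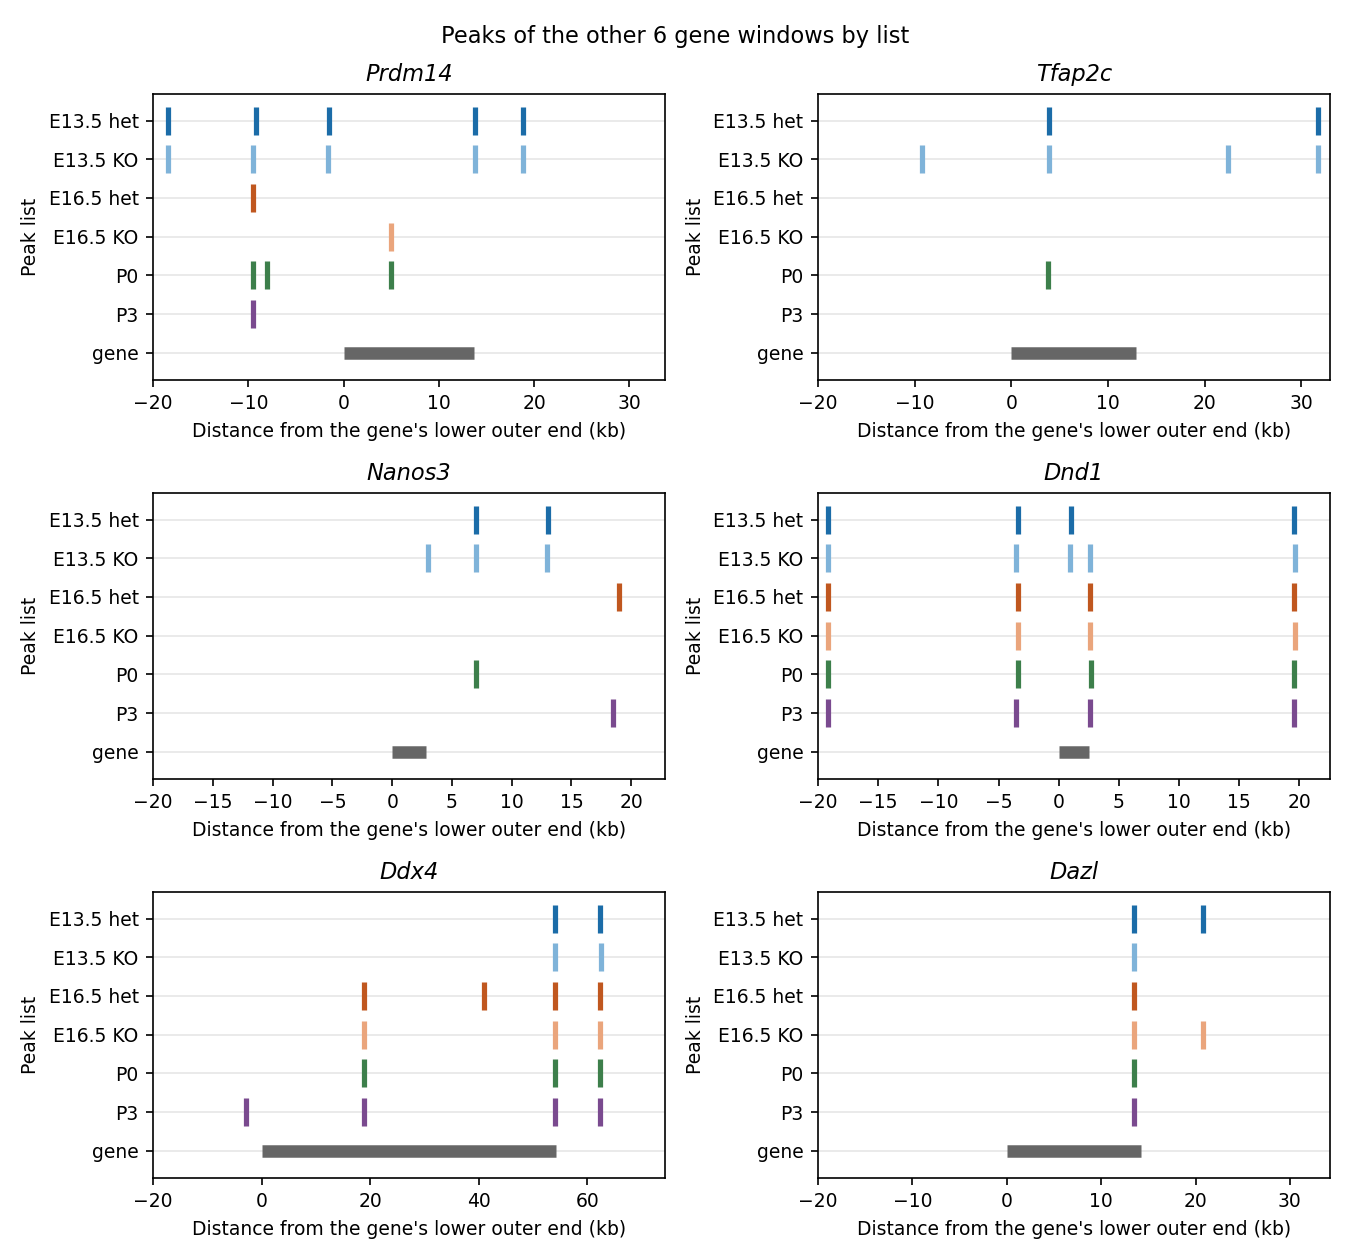
Centres of the peaks in the windows of the other 6 genes in each list, by distance from the lower outer end of the gene (kb, in the direction of the chromosome); grey bars are the genes. *Prdm14*, *Tfap2c* and *Nanos3* have most of their peaks in the upper 2 lanes (E13.5), whereas *Dnd1*, *Ddx4* and *Dazl* have peaks that run through all 6 lanes.

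The regions of the 7 genes were then grouped by the lists that held them. Of the 44 regions, 17 (38.6%, interval 25.7 to 53.4) were in 1 or both E13.5 lists and in no later list, where the share of all regions of the genome was 15.4%. These were 7 at *Prdm1*, 4 at *Prdm14*, 3 at *Tfap2c*, 2 at *Nanos3* and 1 at *Dnd1*, with 0 of 5 at *Ddx4* and 0 of 2 at *Dazl*. Without *Prdm1*, 10 of 27 (37.0%, interval 21.5 to 55.8) had this pattern. By role it was 14 of 28 for the transcription factor genes (50%, interval 32.6 to 67.4) and 3 of 16 for the RNA-binding protein genes (18.8%, interval 6.59 to 43.0). Absent from both E13.5 lists were 11 of the 44 (25.0%, interval 14.6 to 39.4), against 55.0% of the genome's regions. In all 6 lists were 9 (20.5%, interval 11.2 to 34.5), against 16.3%: 3 each at *Prdm1* (1 of them through the chain of peaks described above) and *Dnd1*, 2 at *Ddx4* and 1 at *Dazl*. None of these shares takes account of position. Of the E16.5 heterozygous peaks, 10 of 19 lay at gene ends at the 7 genes, against 17170 of 53687 in the whole list.

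Detection in both genotypes at E13.5 is a stricter criterion, as it takes 2 lists from different mice. It was met, with no later peak, by 14 of the 44 regions, and by 6.93% of all regions. Of such E13.5 regions, all 4 later lists held 82.0% at gene ends and 31.2% elsewhere, so position was taken into account. At the 7 genes they held 8 of 13 and 1 of 15, the latter being the chained region of *Prdm1*. Away from gene ends (more than 1000 bp from every annotated outer end or start), 10 of 15 E13.5 regions found in both genotypes were in no later list (66.7%, interval 41.7 to 84.8), against 39.0% genome-wide. At gene ends it was 4 of 13 (30.8%, interval 12.7 to 57.6), against 5.32%. These 4 lay at the upper end of *Prdm14*, inside *Dnd1* and at the lncRNA genes next to *Prdm1* and *Tfap2c*. In both classes the genome-wide share was below the interval of the 7 genes. These intervals treat the regions of 1 gene as independent, and few genes supply them. Of the 14 regions, 7 were at *Prdm1* and 4 at *Prdm14*. Of the 16 E13.5 heterozygous peaks away from gene ends, 9 were at *Prdm1*, as were 9 of the 17 knockout peaks. The shares by position were not computed without *Prdm1*, so the contrast away from gene ends may depend on this 1 gene.

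**Figure D4:**
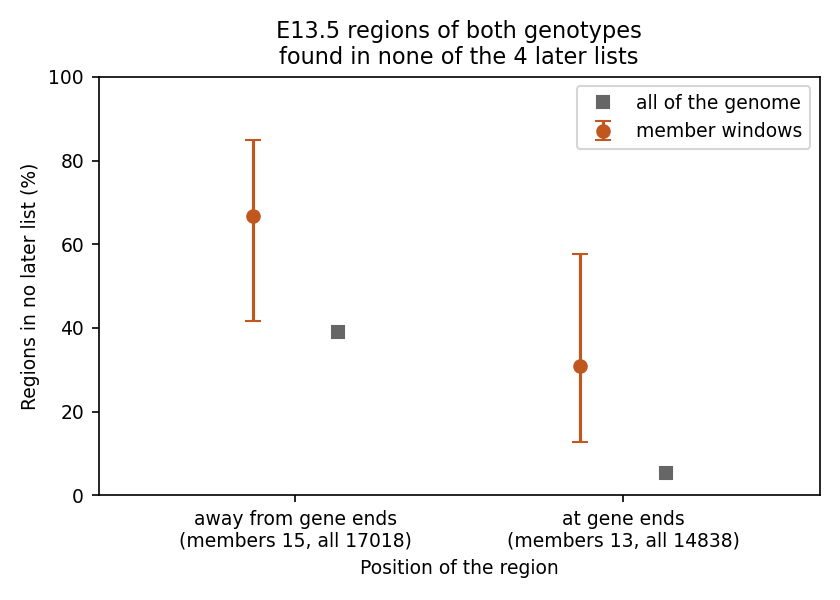
Share of regions found in both E13.5 lists that none of the 4 later lists held, for regions away from and at gene ends; circles are the windows of the 7 genes with 95% Wilson intervals, squares all regions of the genome. The circles stand at 66.7% and 30.8%, the squares at 39.0% and 5.32%.

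Followed from one stage to the next, 12 of 29 E13.5 peaks of the 7 genes in heterozygous cells were found at E16.5 (41.4%, interval 25.5 to 59.3), a share whose interval includes the 56.7% of all peaks. In knockout cells it was 12 of 32 (37.5%, interval 22.9 to 54.7) against 60.6%, outside the interval. Away from gene ends, 3 of 16 (18.8%, interval 6.59 to 43.0) were found in heterozygous cells, against 38.7%, and 3 of 17 (17.6%, interval 6.19 to 41.0) in knockout cells, against 43.2%. The heterozygous interval includes the share of all peaks and the knockout interval does not. By P3, 1 of the 16 heterozygous peaks away from gene ends was still met (6.25%, interval 1.11 to 28.3), against 38.9%. These comparisons use the same E13.5 lists and are not independent of each other. The 1 peak away from gene ends met at P3 belongs to the chained region of *Prdm1*. It is centred at 44539521 and the P3 peak at 44539044, so they overlap only at their edges. The same peak is among the 3 found at E16.5 in heterozygous cells. By P3 the share of all heterozygous E13.5 peaks, at gene ends or not, was 10 of 29 (34.5%, interval 19.9 to 52.7), against 56.6%. Looked at the other way, 12 of 19 peaks of the E16.5 list had a counterpart at E13.5 in each genotype (63.2%, interval 41.0 to 80.9), against 42.7% of heterozygous and 42.0% of knockout peaks. Away from gene ends this was 3 of 9 (33.3%, interval 12.1 to 64.6, against 26.0%) and 3 of 10 (30.0%, interval 10.8 to 60.3, against 25.8%). For the 3 transcription factor genes, 6 of 19 heterozygous peaks of E13.5 were found at E16.5, and for the 4 RNA-binding protein genes 6 of 10, with intervals that overlap (15.4 to 54.0 and 31.3 to 83.2).

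After E16.5 the shares at the 7 genes had intervals that include those of all peaks, except for E16.5 peaks of both genotypes away from gene ends. In the P0 list, 13 of 19 E16.5 heterozygous peaks were found (68.4%, interval 46.0 to 84.6, against 78.0%), as were 13 of 19 knockout peaks (against 76.8%), and 13 of 17 P0 peaks had been present at E16.5 in heterozygous cells (76.5%, interval 52.7 to 90.4, against 62.3%). From P0 to P3, 12 of 17 peaks were found again (70.6%, interval 46.9 to 86.7, against 55.7%), and 12 of 15 P3 peaks had been present at P0 (80.0%, interval 54.8 to 93.0, against 83.6%). Of the P0 and P3 peaks found in both lists, 4 were at *Dnd1*, 3 each at *Prdm1* and *Ddx4*, and 1 each at *Prdm14* and *Dazl*. Away from gene ends the later lists held few peaks of the 7 genes. There, 3 of 9 E16.5 heterozygous peaks were found at P0 (33.3%, interval 12.1 to 64.6), below the 72.2% of all peaks, and 4 of 10 knockout peaks (40.0%, interval 16.8 to 68.7), below the 70.9% of all peaks. *Prdm1* alone supplied 6 of these 9 heterozygous and 7 of these 10 knockout peaks. The 2 genotypes shared regions there, so their shares are not separate observations. The shares were 3 of 6 for P0 peaks at E16.5 (against 55.2%), 2 of 6 for P0 peaks in the P3 list (against 46.5%) and 2 of 4 for P3 peaks in the P0 list (against 78.2%).

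The comparison of genotypes asks whether loss of *Morc1*, which encodes an ATPase of transposon silencing in the male germ line, was accompanied by other peaks at these genes. At E13.5, 4 of 32 knockout peaks had no counterpart in heterozygous cells (12.5%, interval 4.97 to 28.1, against 19.6% of the list): 2 at *Tfap2c*, the start-site peak of *Nanos3* and the *Dnd1* region shared with *Hars*. In the other direction it was 1 of 29 heterozygous peaks (3.45%, interval 0.611 to 17.2, against 21.3%), upstream of *Dazl*. *Prdm1*, *Prdm14* and *Ddx4* had the same regions in both genotypes. At E16.5, 4 of 19 peaks were found in 1 genotype only in each direction (21.1%, interval 8.51 to 43.3), where all peaks gave 23.5% for knockout and 18.6% for heterozygous cells. The 4 knockout peaks were 2 at *Prdm1* and 1 each at *Prdm14* and *Dazl*, and the 4 heterozygous peaks were 1 each at *Prdm1*, *Prdm14*, *Nanos3* and *Ddx4*. Of these peaks, some had a counterpart at another stage: at E13.5 the *Dnd1* and *Dazl* regions, and at E16.5 the 1 of each genotype at *Prdm14*, the *Nanos3* region and the *Dazl* region. The others, at *Tfap2c*, the *Nanos3* start, *Prdm1* and *Ddx4*, were in a single list.

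Start sites gave a simpler picture. A peak within 1000 bp of the start, or of either outer end for the 3 genes without a listed start, was present at *Prdm1*, *Dnd1*, *Ddx4* and *Dazl* in all 6 lists, as at 54.0% of protein-coding genes. At *Dnd1* this rests on the region inside the gene at E13.5 in heterozygous cells and on the region shared with *Hars* elsewhere. At *Dazl* the peak lies inside the gene, more than 250 bp from the start, and is not counted with a start window of 250 bp. *Prdm14* had one in both E13.5 lists only, a pattern of 137 genes (0.626%). *Nanos3* had one in the E13.5 knockout list only, as did 85 genes (0.388%). *Tfap2c*, like 31.8% of genes, had none, but it was scored at its outer ends alone. A peak at a start inside these bounds would not have been counted. Per list, 5 of the 7 genes had such a peak in E13.5 heterozygous cells (60.2% of all protein-coding genes) and 6 in E13.5 knockout cells (60.7%). The later lists had 4 each, with 61.1% (E16.5 heterozygous), 62.0% (E16.5 knockout), 63.9% (P0) and 59.5% (P3) of all genes.

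Of 35 other genes of the pathway, 23 had a start-site peak in all 6 lists, 2 (*Nanos2* and *Tfap2a*) in none, and 10 in some. Of all protein-coding genes, 54.0% had one in all 6 lists and 31.8% in none. All 5 repressors of germline genes (*E2f6*, *Mga*, *Max*, *L3mbtl2* and *Pcgf6*) had one in each list. The list counts were 29, 28, 27, 29, 28 and 25 in the order E13.5 heterozygous, E13.5 knockout, E16.5 heterozygous, E16.5 knockout, P0 and P3. The share of all protein-coding genes was 59.5% to 63.9% per list. Among the early factors the number was 5 and 4 of 6 at E13.5, 2 in each E16.5 list and at P0, and 1 at P3. *Lin28a*, whose product blocks let-7 maturation, and *Ifitm1* and *Ifitm3*, which encode interferon-induced membrane proteins of early germ cells, had the pattern of *Prdm14*, with a peak in both E13.5 lists and none later. *Nanog*, a pluripotency factor, had one in both E13.5 lists and the E16.5 knockout list. The reverse was seen at *Bmp4* (a BMP ligand) and *Pou5f1* (OCT4), which had one at P0 and in the pair of E16.5 lists, at *Wnt3* (a Wnt ligand), which had one in these and at P3, and at *T* (Brachyury), which had one in both E16.5 lists only. Genotypes differed at *Dppa3* at E13.5 (heterozygous only) and at *Nanog* and *Sall4* at E16.5 (knockout only). For *Dppa3* and *Sall4*, which lack a listed start, the peak may lie at either outer end of the gene. Over all protein-coding genes they differed at 3.18% at E13.5 and 4.31% at E16.5.

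**Figure D5:**
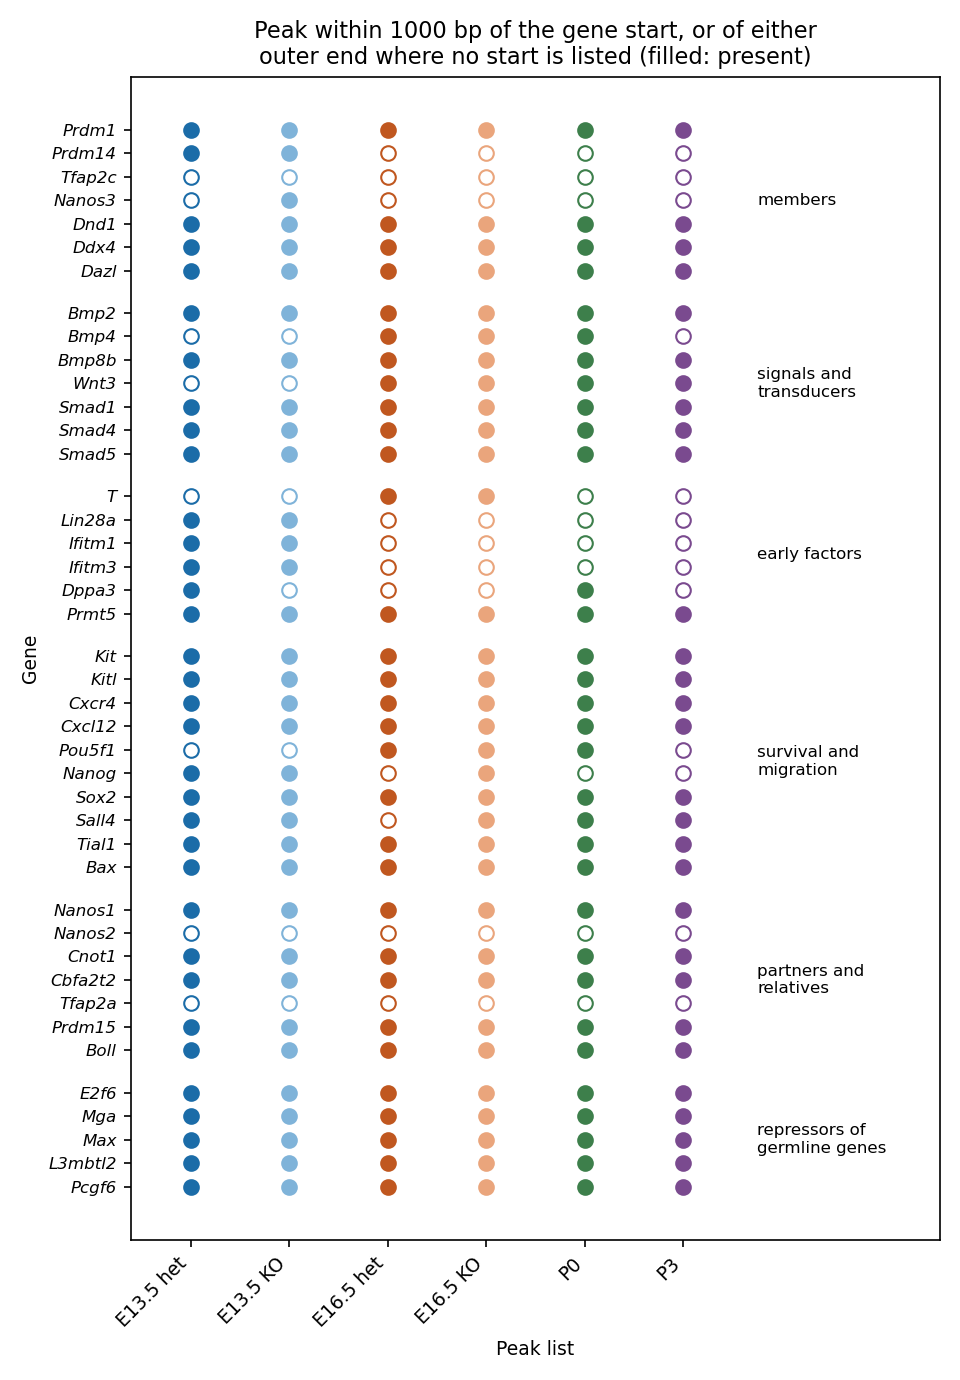
Presence (filled) or absence (open) of a peak within 1000 bp of the gene start, or of either outer end where no start is listed, for the 7 genes and 35 other genes of the pathway (rows) in the 6 lists (columns). *Prdm14*, *Lin28a*, *Ifitm1* and *Ifitm3* are filled at E13.5 only, and the 5 repressors of germline genes in all lists.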

How the data were processed

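The 7 genes and the gene lists were chosen with earlier results of these data known. The labels describe tagmentation of germ cell nuclei and PCR. Per the submitters' processing notes, bcl2fastq 2.20, cutadapt 1.18, Bowtie2 2.3.4.1, deepTools 3.5.0 and HOMER 4.10 were used with build mm10; their roles, the peak threshold and any pooling of the 2 samples behind each list are not given in the sources used here. The authors deposited 8 peak lists that hold chromosome, start and end; fixed widths hide peak breadth. Starts were made 1-based. The build was checked against 21263 RefSeq starts: 52.4% to 54.9% had a peak within 250 bp, and 2.16% to 3.21% when moved by 10000 bp.

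Peaks overlapped when they shared 1 bp; overlaps were computed with pandas 2.3.3 and numpy 2.4.6, tested on simulated data, and matched bedtools 2.31.1 in 6 comparisons. Overlapping peaks of the 6 lists were joined into regions. Starts came from the promoter table for 17492 protein-coding genes; both outer ends were used for 4395. Named were all 7 genes, pathway genes whose start-site peak differed between lists (up to 15), and regions at a start, in 1 genotype only or in all lists; the other regions, and the comparison with windows of like E13.5 count, were chosen after their values were seen. Alternatives were flanks of 10 and 50 kb, start windows of 500 and 250 bp, 50% reciprocal overlap, a gap of 500 bp and nearest-gene peaks. Leaving out *Prdm1* or peaks at gene ends was added after seeing the data.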

Additional observations from a re-analysis of the deposited data

Results flagged for a closer look

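The difference in peak number between genotypes had opposite signs at the 2 fetal stages in 2 gene windows. For *Nanos3*, knockout minus heterozygous was 1 (E13.5: 3 against 2 peaks) and -1 (E16.5: 0 against 1). For *Dazl* it was -1 (E13.5: 1 against 2) and 1 (E16.5: 2 against 1). Whether the stages differ was not tested, as each value compares 1 list with 1 list. Among 3928 genes with a difference at both stages, 52.2% had opposite signs.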

How the results depend on the processing

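No paired analysis was possible because every list describes 1 group as a unit, with nothing recorded for its single samples; leaving out replicates was not possible for the same reason. Depth and peak height are unknown, so a weak peak cannot be told from a missing one. Of the recomputed values 114 stayed within their interval or within 1.5 times the reported count and 21 did not. Among the former were all those with 10 kb flanks, reciprocal overlap, a gap of 500 bp or nearest-gene peaks. With 50 kb flanks the peaks per list became 46 (E13.5 heterozygous), 32 and 31 (E16.5 heterozygous and knockout), 31 (P0) and 27 (P3), by construction more than before. Without *Prdm1* they became 17 and 20 (E13.5, heterozygous and knockout), then 11 and 10 (E16.5), 13 (P0) and 11 (P3), so that the count no longer declines after E16.5; 27 regions were left, 10 of them at E13.5 only. Start windows of 500 and 250 bp left 3 genes with a peak in the E13.5 heterozygous list. With 250 bp the E13.5 knockout list had 5 and each later list 3, as the *Dazl* peak was no longer counted in any list. Using only peaks away from gene ends, 18.8% of heterozygous and 17.6% of knockout E13.5 peaks had a counterpart at E16.5, and 33.3% and 30.0% of E16.5 peaks had one at E13.5. Between E16.5 heterozygous cells and P0 it was 33.3% forward and 50% back, and between P0 and P3 33.3% forward and 50% back. These rest on 4 to 17 peaks each, and the cause was not tested.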

Other observations

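How peaks are joined decides the pattern of 1 region of *Prdm1*. The region at 44538671 to 44539771 on chromosome 10, 10.7 kb beyond the upper end of the gene, counts as present in all 6 lists only because overlapping peaks were chained over 1101 bp. The E13.5 centres lay at 44539521 (heterozygous) and 44539381 (knockout). The later centres lay at 44539044 (E16.5 heterozygous and P3), 44539035 (E16.5 knockout) and 44538921 (P0). Both E13.5 centres were therefore on one side of all 4 later centres, and the E13.5 heterozygous peak did not overlap the P0 peak. Over the 35 regions of the 7 genes found in more than 1 list, the median range of centres was 37 bp, and the largest was the 600 bp of this region.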
